A study of Mus musculus with 8 samples.

Results

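Notch receptors on a cell surface are cut after they bind a ligand of the Delta-like or Jagged family on a neighbouring cell, and the freed part joins the DNA-binding protein RBPJ in the nucleus to switch on Hes and Hey genes. In vessels this pathway chooses between arterial and venous identity and between tip and stalk cells, and in the gut epithelium it holds progenitors back from the secretory fate. The connexins of arterial endothelium, which form gap junctions between neighbouring cells, are commonly used as markers of arterial identity. The 10 genes described here are the receptors Notch1 and Notch4, the ligands Dll4, Jag1 and Jag2, the nuclear factor Rbpj, the targets Hes1 and Hey1, and the connexin genes Gja4 (connexin 37) and Gja5 (connexin 40). They were listed by name, with earlier results of these data known, and are 10 of the 22180 genes that could be named on the array.

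Expression was measured in endothelial cells sorted from the colon 2 days after transplantation, with 4 allogeneic and 4 syngeneic recipients on 1 array each. Recipients in both groups were female C57BL/6 mice that had 5 days of busulfan and cyclophosphamide and then 15000000 bone marrow cells with 2000000 T cells. Donors were LP/J mice in the allogeneic group and C57BL/6 mice in the syngeneic group, so both groups carry the effects of chemotherapy and a graft, and no mice without a transplant were analysed here. The comparison addresses early graft-versus-host disease, in which donor T cells attack recipient tissue and the colon is a target organ. The sort kept cells with CD31 (the product of Pecam1) and without CD45 and CD11b, the age of the mice is not given in the sources used here, and each sample is labelled a biological replicate.

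None of the 10 genes passed the test between allogeneic and syngeneic arrays, with or without adjustment for endothelial signal. Hey1 and Gja4 spanned 2.82 and 2.70 log2 units over the 8 arrays and were highest on syngeneic array 4, where Pecam1 and Cdh5 were highest. Hes1 and Gja5 spanned 0.66 and 0.36 units, beside a median of 0.68 over all genes. Without that array the spans were 1.72 for Hey1, 1.20 for Gja4, 0.62 for Hes1 and 0.36 for Gja5. In the unadjusted values Rbpj was the only gene of the 10 whose groups did not overlap. The probe set that showed this is numbered among chromosome 6 genes, while Rbpj is on chromosome 5. Whether it reads Rbpj, a pseudogene or both was not tested. The second probe set, numbered among the neighbours of Rbpj, did not show this separation. No detection call was at hand for either set.

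All values are normalized log2 signals, so 1 unit is a doubling. The arrays differed in how much endothelial signal they held. The mean of Pecam1 and Cdh5 (VE-cadherin, an adherens junction protein of endothelium) was 9.48, 9.72, 10.25 and 10.17 on allogeneic arrays 1 to 4 and 9.99, 9.62, 10.78 and 11.48 on syngeneic arrays 1 to 4. Syngeneic arrays 3 and 4 were the highest of the 8, and the other 2 syngeneic arrays lay within the allogeneic range. The group difference was -0.56, with a mean of 9.90 ± 0.36 for allogeneic and 10.47 ± 0.83 for syngeneic arrays (SD, n = 4 in each group), and did not pass (two-sided exact permutation p = 0.343, against a smallest possible p of 0.0286). The mean of 17 genes of colon epithelium ran from 10.57 to 10.71 in allogeneic and from 9.99 to 10.64 in syngeneic arrays, and syngeneic array 4 had both the lowest epithelial and the highest endothelial mean. The labelled cell type was thus present on every array together with abundant epithelial transcripts. In such bulk samples fewer cells of a type and less RNA per cell cannot be told apart. On the first principal component of all genes, which held 34.9% of the variance, syngeneic arrays 3 and 4 scored 28.8 and 51.1. Syngeneic arrays 1 and 2 scored 4.89 and -3.67, and the allogeneic arrays between -27.4 and -13.2. The groups thus did not overlap on it.

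**Figure D1:**
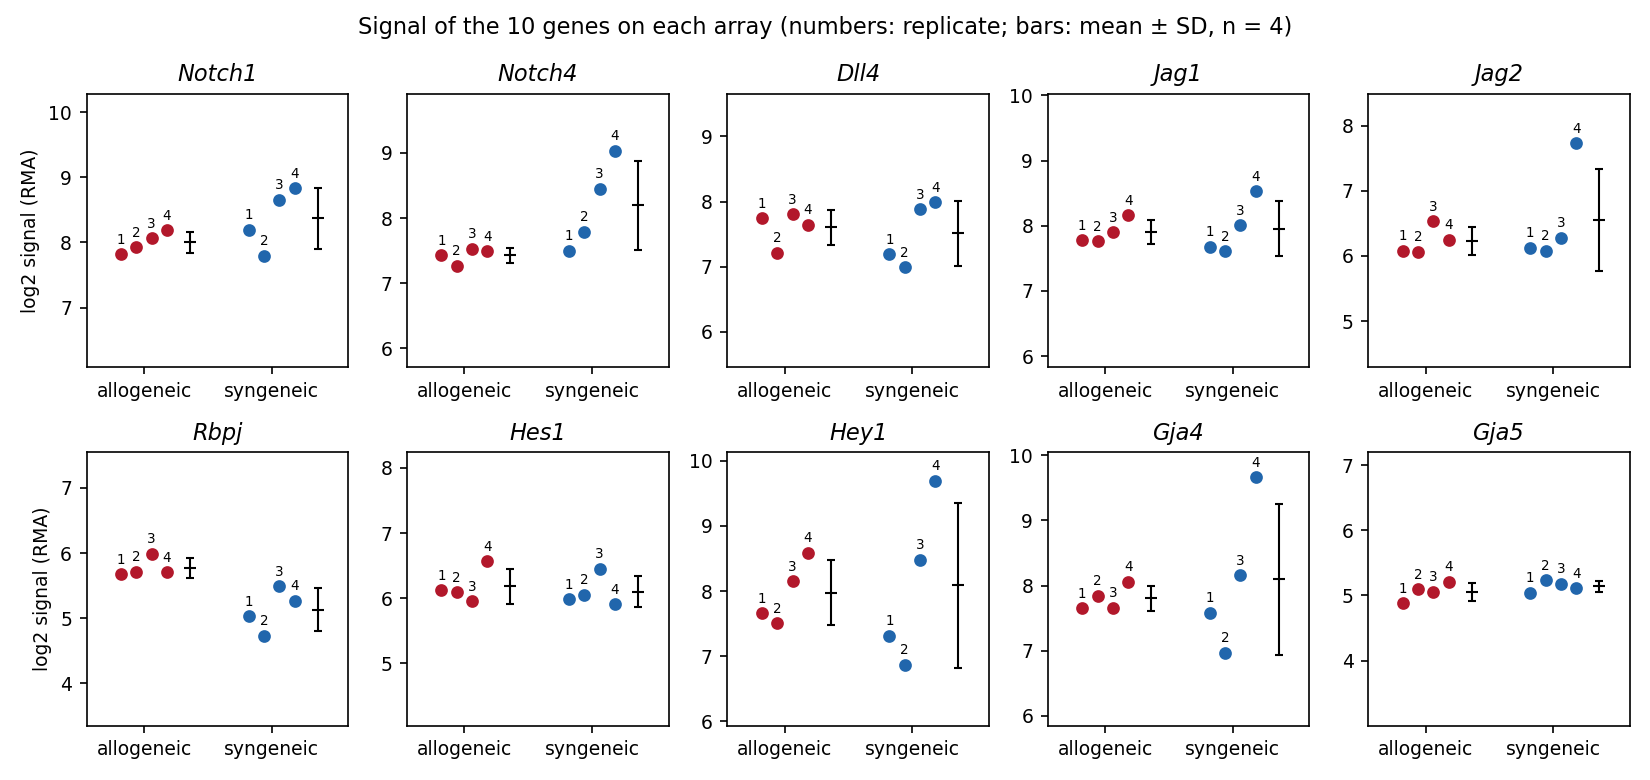
Log2 signal (vertical axis) of each of the 10 genes on the 4 allogeneic and 4 syngeneic arrays, with points numbered by replicate and bars for the mean ± SD. Each panel spans the same number of log2 units around the gene's own mean. Syngeneic arrays 3 and 4 stand above the other syngeneic arrays for every gene except Hes1 and Gja5, and Gja5 is nearly level.

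The receptors had lower means in the allogeneic group. Notch1, a receptor active in both endothelium and gut epithelium, had 7.82, 7.93, 8.06 and 8.19 on allogeneic arrays 1 to 4 and 8.19, 7.80, 8.66 and 8.84 on syngeneic arrays 1 to 4. The groups overlapped, since syngeneic array 2 was the lowest of all 8. Its log2 change was -0.37 ± 0.21 (SE, limma adjusted p = 0.501), and -0.07 ± 0.13 with the mean of Pecam1 and Cdh5 as a covariate (limma adjusted p = 0.907). Notch4 is a receptor found mainly in endothelium. It had 7.43, 7.27, 7.53 and 7.49 on allogeneic arrays 1 to 4 and 7.50, 7.79, 8.45 and 9.03 on syngeneic arrays 1 to 4. The allogeneic arrays were close together and the syngeneic ones spread upward, with syngeneic array 1 still inside the allogeneic range. Its log2 change of -0.76 ± 0.28 (SE) was the lowest of the 10 genes and did not pass (limma adjusted p = 0.273). With the covariate it was -0.38 ± 0.18 (SE, limma adjusted p = 0.492), and without syngeneic arrays 3 and 4 it was -0.22.

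The ligands overlapped between the groups. Dll4, the Delta-like ligand of endothelial tip and arterial cells, had 7.74, 7.22, 7.81 and 7.65 on allogeneic arrays 1 to 4 and 7.19, 6.99, 7.88 and 7.99 on syngeneic arrays 1 to 4. Syngeneic arrays 1 and 2 were the lowest of the 8 and syngeneic arrays 3 and 4 the highest, so that the group means nearly met. Its log2 change was 0.09 ± 0.24 without and 0.38 ± 0.18 with the covariate (SE, limma adjusted p = 0.917 and 0.478). When the mean of Pecam1 and Cdh5 was subtracted from each array, Dll4 lay between -2.52 and -1.74 in allogeneic and between -3.49 and -2.63 in syngeneic arrays, without overlap. The probe set used for Rbpj was also without overlap, at -4.46 to -3.81 in allogeneic and -6.21 to -4.89 in syngeneic arrays. The remaining genes listed by name at the start overlapped. Such separation toward higher allogeneic values held for 1.12% of all genes, but subtraction moved the median of all genes by 0.56 and the change of Dll4 to 0.65, which did not pass (limma adjusted p = 0.536).

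Jag1, a Jagged ligand of endothelium, smooth muscle and epithelium, had 7.78, 7.77, 7.90 and 8.16 on allogeneic arrays 1 to 4 and 7.68, 7.61, 8.01 and 8.53 on syngeneic arrays 1 to 4. Its syngeneic values enclosed the allogeneic ones. The log2 change was -0.06 ± 0.20 without and 0.21 ± 0.14 with the covariate (SE, limma adjusted p = 0.941 and 0.649). Jag2, the second Jagged ligand, had 6.08, 6.07, 6.54 and 6.25 on allogeneic arrays 1 to 4 and 6.13, 6.08, 6.28 and 7.73 on syngeneic arrays 1 to 4. Syngeneic array 4 stood far above the other 7 arrays. The log2 change was -0.32 ± 0.33 (SE, limma adjusted p = 0.735) with all arrays and 0.07 without that array (limma adjusted p = 0.902). With the covariate it was 0.12 ± 0.22 (SE, limma adjusted p = 0.917).

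Rbpj encodes the protein through which all Notch receptors reach their target genes. At the probe set with the higher mean it had 5.67, 5.71, 5.99 and 5.71 on allogeneic arrays 1 to 4 and 5.03, 4.73, 5.49 and 5.27 on syngeneic arrays 1 to 4. Every allogeneic array lay above every syngeneic one, as for 5.18% of all genes. Rbpj was 1 of the 10 genes without overlap in either direction, against 8.55% of all genes. The mean was 5.77 ± 0.15 over the 4 allogeneic and 5.13 ± 0.33 over the 4 syngeneic arrays (SD), and the log2 change of 0.64 ± 0.17 (SE) did not pass (limma adjusted p = 0.142). With the covariate the change was 0.81 ± 0.17 (SE) and the limma adjusted p was 0.0778. The call was reached in 2 of the other settings of that fit, with array weights (limma adjusted p = 0.037) and with arrays centred on their medians (limma adjusted p = 0.0425).

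The second probe set annotated to Rbpj gave another result. It had 4.80, 4.77, 4.75 and 4.79 on allogeneic arrays 1 to 4 and 5.01, 4.74, 4.75 and 4.68 on syngeneic arrays 1 to 4. The allogeneic values lay inside the syngeneic range. The mean of this set over the 8 arrays was 4.79, below that of the median gene (5.33). In the first set the syngeneic mean of 5.13 was also below that gene. No detection call was at hand for either set, so the level signal of the second set cannot be told apart from one not detected. The log2 change was -0.02 ± 0.12 without and -0.06 ± 0.14 with the covariate (SE, limma adjusted p = 0.972 and 0.934), a setting added once the data had been seen. Both sets are annotated to Rbpj, which RefSeq places on chromosome 5, and numbers of neighbouring probe sets follow the genome in this table (98.4% of adjacent named probe sets are on the same chromosome). The 5 named probe sets before and the 5 after the second set are all on chromosome 5, next to Smim20 and Tbc1d19. Those around the set with the higher mean are all on chromosome 6, between Nobox and Ezh2, where the same annotation has the pseudogene Rbpj-ps3. Whether the first set reads Rbpj, a pseudogene or both was not tested, so its values are uncertain as a measure of Rbpj. For the other 9 genes all 10 such neighbours were on the gene's own chromosome.

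**Figure D2:**
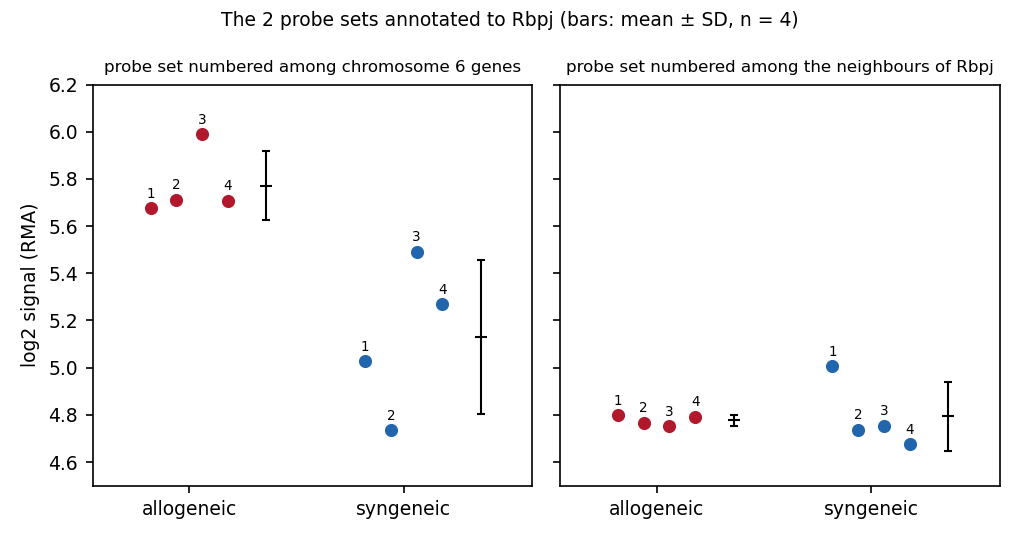
Log2 signal (vertical axis) of both probe sets annotated to Rbpj on each allogeneic and syngeneic array, with bars for the mean ± SD (n = 4). The set numbered among chromosome 6 genes lies at 5.67 to 5.99 in allogeneic and 4.73 to 5.49 in syngeneic arrays, and the set numbered among the neighbours of Rbpj at 4.75 to 4.80 in allogeneic and 4.68 to 5.01 in syngeneic arrays.

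The targets went separate ways. Hes1, a transcriptional repressor that Notch switches on in many tissues, had 6.13, 6.10, 5.95 and 6.57 on allogeneic arrays 1 to 4 and 5.99, 6.06, 6.45 and 5.91 on syngeneic arrays 1 to 4. The groups overlapped, and syngeneic array 4, the highest in endothelial signal, was the lowest of the 8. Its log2 change was 0.08 ± 0.18 without and 0.10 ± 0.20 with the covariate (SE, limma adjusted p = 0.889 and 0.924). Hey1 is a related repressor and a Notch target typical of arterial endothelium. It had 7.66, 7.51, 8.15 and 8.59 on allogeneic arrays 1 to 4 and 7.32, 6.87, 8.48 and 9.70 on syngeneic arrays 1 to 4. Syngeneic arrays held both the lowest and the highest values, and the SD was 0.49 in allogeneic and 1.27 in syngeneic arrays.

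The change of Hey1 depended on how the arrays were compared. It was -0.11 ± 0.52 (SE, limma adjusted p = 0.955) without the covariate, 0.71 ± 0.18 with it (SE, limma adjusted p = 0.157) and 0.88 when syngeneic arrays 3 and 4 were left out (limma adjusted p = 0.311). Over all settings of the adjusted fit its change lay between 0.45 and 0.93 and its limma adjusted p between 0.0598 and 0.705. None of these passed. Hey2, a relative of Hey1 that acts with it in arterial endothelium, had a log2 change of 0.06 ± 0.45 without and 0.74 ± 0.22 with the covariate (SE, limma adjusted p = 0.975 and 0.206).

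The connexin genes differed in spread. Gja4 had 7.65, 7.84, 7.66 and 8.06 on allogeneic arrays 1 to 4 and 7.58, 6.97, 8.16 and 9.67 on syngeneic arrays 1 to 4. As with Hey1, syngeneic array 4 was the highest and syngeneic array 2 the lowest. The log2 change was -0.29 ± 0.45 without and 0.37 ± 0.24 with the covariate (SE, limma adjusted p = 0.841 and 0.659). Gja5 had 4.88, 5.09, 5.06 and 5.21 on allogeneic arrays 1 to 4 and 5.04, 5.24, 5.18 and 5.11 on syngeneic arrays 1 to 4. Its 8 values spanned 0.36 units, a range smaller than that of all but 9.32% of genes, whereas the ranges of Gja4 (2.70) and Hey1 (2.82) exceeded those of 99.3% and 99.4% of genes. Without syngeneic array 4 the range of Gja4 was 1.20 and that of Hey1 1.72, above those of 90.4% and 97.7% of genes over the same 7 arrays. The log2 change of Gja5 was -0.08 ± 0.12 (SE, limma adjusted p = 0.834), with a 95% interval from -0.36 to 0.19. No detection call was at hand, so a level signal of this kind cannot be told apart from one that is not detected.

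The promoters of both connexin genes and of Rbpj are shown because the connexins differed in spread and Rbpj is the pathway's DNA-binding factor. Each is the 250 bases before the RefSeq start on GRCm38.p6, 5′ to 3′ on the gene's strand, and capitals mark the letters TGGGAA of the RBPJ core motif or TTCCCA, the same letters on the other strand. Gja4 is at chr4:127314040-127314289 on the minus strand, Gja5 at chr3:97032152-97032401 on the plus strand and Rbpj, at the first of its 2 listed starts, at chr5:53590096-53590345 on the plus strand.
Gja4: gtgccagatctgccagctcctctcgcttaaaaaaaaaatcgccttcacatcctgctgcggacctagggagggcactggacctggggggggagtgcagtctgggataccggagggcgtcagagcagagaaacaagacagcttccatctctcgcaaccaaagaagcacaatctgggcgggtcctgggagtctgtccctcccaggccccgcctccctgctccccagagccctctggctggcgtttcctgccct
Gja5: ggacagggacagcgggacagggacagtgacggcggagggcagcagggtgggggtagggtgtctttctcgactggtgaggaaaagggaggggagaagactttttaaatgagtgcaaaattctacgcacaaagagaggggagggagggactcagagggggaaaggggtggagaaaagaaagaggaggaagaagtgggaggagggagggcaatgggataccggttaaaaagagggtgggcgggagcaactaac
Rbpj: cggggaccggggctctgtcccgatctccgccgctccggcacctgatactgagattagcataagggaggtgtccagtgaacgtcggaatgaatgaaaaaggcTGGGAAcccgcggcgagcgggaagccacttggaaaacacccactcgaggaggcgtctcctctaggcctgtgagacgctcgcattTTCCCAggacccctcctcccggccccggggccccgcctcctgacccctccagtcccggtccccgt
Of the 10 genes 8 had a promoter in the table, and Hes1 and Hey1 had none. The letters were found, on either strand, in the Rbpj window, where they start 149 and 65 bases before the start, and in none of the other 7 genes' windows. Over all 32851 windows of the same length 21.6% hold them, and the E-box CACGTG, to which Hes and Hey proteins can bind, was in 6.02% of all windows and in none of these 8 genes'. A match is a run of letters and not a site.

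Over the whole table, 104 of 22180 genes passed between the groups without a covariate, or 0.469%, and 0 of the 10 genes did (limma, Benjamini-Hochberg). Before adjustment 2 of the 10, Notch4 and Rbpj, had a p below 0.05, against 13.2% of all genes. With the mean of Pecam1 and Cdh5 as a covariate 70 genes passed, or 0.316%, and again 0 of the 10. Before adjustment 2, Rbpj and Hey1, had a p below 0.05, against 10.9% of all genes. The median log2 change of the 10 genes was -0.10 without and 0.16 with the covariate, beside -0.0050 and -0.0049 over all genes. Without the covariate 3 of the 10 changes were positive, and with it 7 were. Dll4, Rbpj and Hes1 were positive in both fits, Notch1, Notch4 and Gja5 negative in both, and Jag1, Jag2, Hey1 and Gja4 turned from negative to positive. The group difference of the covariate was -0.56 and all 10 genes had a positive coefficient on it. Each change therefore had to be higher with the covariate than without. The upward shift follows from the fit and is not a separate result. A difference that misses the threshold is not shown to be absent, and the 95% intervals without the covariate reached from -1.27 to 1.04 for Hey1 and from -1.29 to 0.71 for Gja4.

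**Figure D3:**
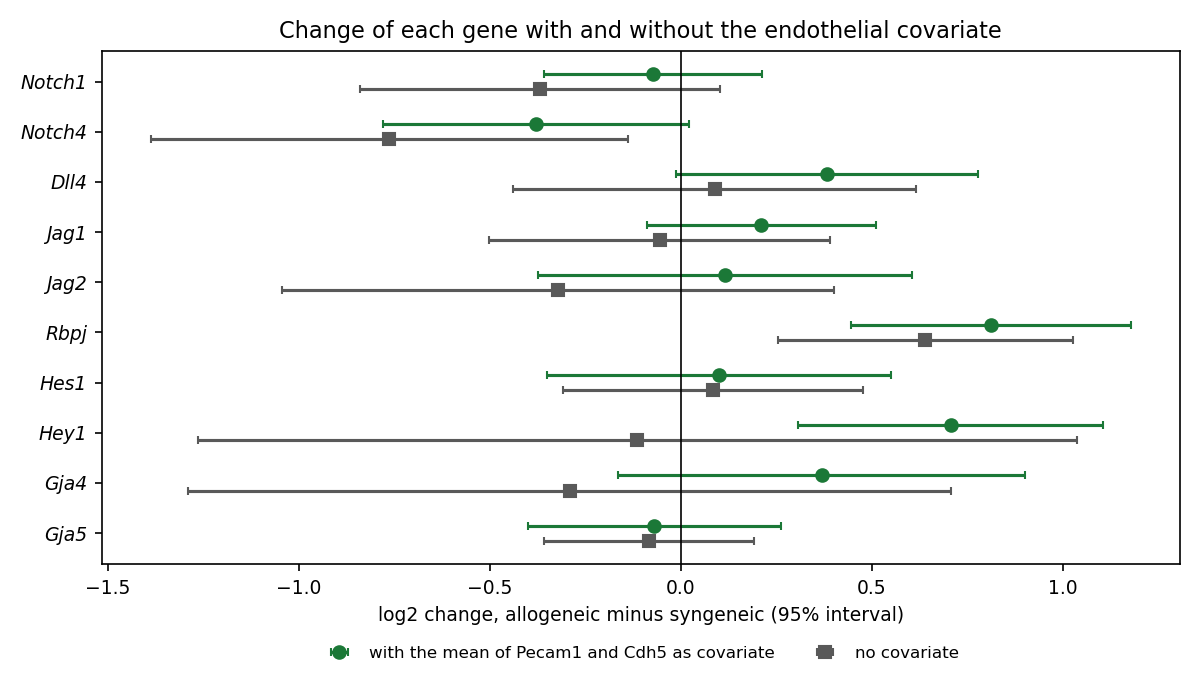
Log2 change, allogeneic minus syngeneic (horizontal axis), of each of the 10 genes with its 95% interval, with the mean of Pecam1 and Cdh5 as a covariate (circles) and with none (squares). The change of Hey1 is 0.71 with the covariate and -0.11 without it, and its interval is narrower with it.

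The covariate's own coefficient shows how each gene followed the endothelial signal among arrays of the same group. It is the slope of the gene's log2 signal per log2 unit of the mean of Pecam1 and Cdh5. Hey1 had the steepest slope of the 10, 1.46 ± 0.15 (SE, limma adjusted p = 0.00101), and Gja4 followed with 1.17 ± 0.19 (SE, limma adjusted p = 0.013). Notch4 (0.68 ± 0.15) and Notch1 (0.53 ± 0.10) also passed (SE, limma adjusted p = 0.0399 and 0.0287). These were 4 of the 10 genes, against 2.25% of all genes, and positive slopes past the threshold made up 1.76% of all genes. Jag2 (0.78 ± 0.18), Dll4 (0.52 ± 0.14) and Jag1 (0.47 ± 0.11) did not pass (SE, limma adjusted p = 0.0532, 0.107 and 0.0542), nor did Rbpj (0.30 ± 0.13, limma adjusted p = 0.374). Hes1 (0.03 ± 0.16) and Gja5 (0.03 ± 0.12) had slopes near 0 (SE, limma adjusted p = 0.985 and 0.981).

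The calls on these slopes depended on which arrays were included. Without syngeneic array 4 none of the 10 slopes passed and 2 genes did in the whole table, both of them on the pan-endothelial list. That list includes Pecam1 and Cdh5, whose slopes on their own mean are circular. These 2 calls therefore do not show that any other endothelial gene passed. In that fit the slope of Hey1 was 1.30 (limma adjusted p = 0.103), that of Gja4 0.70, that of Notch4 0.50 and that of Notch1 0.60. Without both syngeneic arrays 3 and 4 the slope of Hey1 was 1.12, that of Notch1 0.50, that of Gja4 0.40 and that of Notch4 0.06, and 0 genes passed over the whole table. Without syngeneic array 1 Hey1 and Gja4 passed, 2 of the 10, and without syngeneic array 2 Hey1 alone, with Gja4 at a limma adjusted p of 0.146. The call on Notch4 was also lost without allogeneic array 2 or syngeneic array 3 (limma adjusted p = 0.0669 and 0.0503), and that on Notch1 without allogeneic array 1 (limma adjusted p = 0.0532). Dll4 passed without allogeneic array 1 (limma adjusted p = 0.0488), and Jag1 and Jag2 passed without syngeneic array 3 (limma adjusted p = 0.0475 and 0.0115). The whole-table count ran from 2 to 677 genes with each array left out in turn. Except without syngeneic array 4, or without both syngeneic arrays 3 and 4, the calls are not set beside that count. They therefore do not show whether the 10 passed more often than other genes. The same holds for the gene lists described below.

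**Figure D4:**
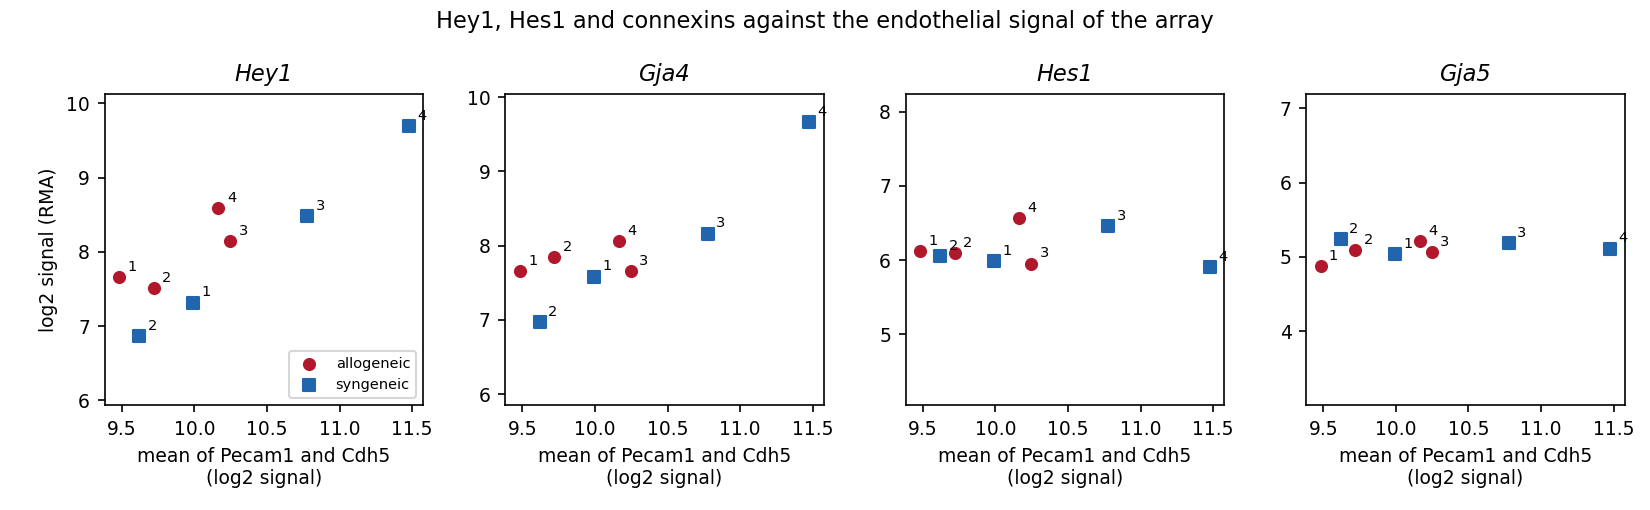
Log2 signal (vertical axis) of Hey1, Gja4, Hes1 and Gja5 against the mean log2 signal of Pecam1 and Cdh5 (horizontal axis), with 1 point per array numbered by replicate. Hey1 and Gja4 are highest on syngeneic array 4, which has the highest endothelial mean (11.48), while Hes1 and Gja5 show no such rise.

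Against the epithelial list the picture was turned round. The slope on the mean of the 17 epithelial genes, fitted in place of Pecam1 and Cdh5, was -3.85 ± 0.79 for Hey1, -3.68 ± 0.49 for Gja4 and -2.44 ± 0.49 for Jag2 (SE, limma adjusted p = 0.0494, 0.0209 and 0.0477). These 3 of the 10 passed, against 1.17% of all genes. Hes1, which is also made by gut epithelium, had a slope of 0.26 ± 0.49 and Gja5 one of 0.04 ± 0.36 (SE, limma adjusted p = 0.949 and 0.989). Without syngeneic array 4 no slope of this kind passed among the 10 genes or in the whole table. Nor did any without syngeneic array 1 or 2. Without allogeneic array 1 or 3 1 of the 10 passed each time. There were 4 without allogeneic array 2 or 4, and 2 without syngeneic array 3. The whole-table count ran from 0 to 615 genes with each array left out in turn. The counts of 1, 2 and 4 are not set beside the share of all genes in the same fit. They therefore do not show whether the 10 passed more often than other genes.

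Likeness among genes was measured as the root mean square difference of values over the 8 arrays, each gene centred on its own mean. Among the 45 pairs of the 10 genes Notch1 and Jag1 were most alike (0.2058), with Hes1 and Gja5 next (0.2065). Hes1 and Hey1, both Notch targets, were least alike (0.833), next to Hey1 and Gja5 (0.828). These 2 differences were about as large as the deviation of Hey1 from its own mean (0.834). Hey1 and Gja4 differed by 0.31, less than the deviation of either from its own mean (0.83 and 0.73). In the whole table the genes nearest to Hey1 were Prkch (0.21), a protein kinase C, Hey2 (0.23) and Cd36 (0.27), a fatty acid receptor of capillary endothelium. Those nearest to Gja4 were Lmcd1 (0.15), AU021092 (0.19) and She (0.19). Those nearest to Notch4 were Hlx (0.12), Ifi205 (0.14) and Apbb2 (0.14), and those nearest to Notch1 were Mvb12b (0.059), Ece1 (0.060), the endothelin-converting enzyme, and Plekhg2 (0.078). Dll4 had Smpd5 (0.10), Rnf122 (0.13) and Tango6 (0.14), Jag1 had Stx2 (0.069), Ppp1r13b (0.089) and Rabac1 (0.091), and Jag2 had Srarp (0.12), Adamts8 (0.12) and Id3 (0.13), a target of BMP signalling in endothelium. For Hes1 they were Cerox1 (0.066), Sp6 (0.069) and Clstn2 (0.071), for Gja5 Frrs1l (0.039), Dhrs7c (0.043) and Mir466b-2 (0.047), and for the set used for Rbpj Zfp273 (0.13), Iqcc (0.13) and Ajap1 (0.17). Genes with a small range lie close to many others by this measure.

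The rest of the Notch pathway gave no gene past the threshold between the groups. Of 47 further measured genes 0 passed in either fit (limma), 5 had an unadjusted p below 0.05 without the covariate and 6 with it, beside 13.2% and 10.9% of all genes, and their median log2 change was -0.01 without and 0.06 with the covariate. Among the other receptors Notch3, which is best known from the smooth muscle and pericytes of vessels, had a log2 change of -0.66 ± 0.33 and Notch2 one of -0.21 ± 0.19 (SE, limma adjusted p = 0.429 and 0.689). The 4 other ligand genes lay between -0.03 and 0.17, with Dll1 at 0.17 ± 0.13 (SE). Among 6 genes for enzymes that add sugars to Notch, Lfng had 0.24 ± 0.18 and Mfng -0.57 ± 0.48 (SE, limma adjusted p = 0.632 and 0.666). Of 8 measured genes of the proteases that cut Notch 8 had a positive log2 change without and 7 with the covariate, with a median of 0.11 without it and Adam10, which makes the cut outside the membrane, at 0.18 ± 0.11 (SE, limma adjusted p = 0.537). The gamma-secretase subunit genes Aph1a (0.22) and Psenen (0.14) did not pass either.

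Nuclear cofactors were split. Snw1 (0.57 ± 0.21), a cofactor that binds RBPJ, and the histone deacetylase gene Hdac1 (0.56 ± 0.20) were positive, and Maml1 (-0.41 ± 0.18), a coactivator of the Notch complex, was negative (SE, limma adjusted p = 0.276, 0.265 and 0.345). Among 11 genes of Notch endocytosis and turnover Itch, a ubiquitin ligase, had 0.54 ± 0.19 (SE, limma adjusted p = 0.252), and the median was -0.06. Among 8 other genes listed with the targets, Hes6 had 0.40 ± 0.16, Hes5 -0.34 ± 0.16 and Nrarp, a feedback inhibitor of Notch, -0.16 ± 0.14 (SE, limma adjusted p = 0.322, 0.388 and 0.675). Whether each of the 8 answers to Notch was not tested. In 2 of the 47 genes the slope on the mean of Pecam1 and Cdh5 passed, beside 2.25% of all genes. These were Hey2 (1.22 ± 0.17) and Mfng (1.18 ± 0.23), with limma adjusted p of 0.00665 and 0.0294. Without syngeneic array 4 their slopes were 1.30 and 0.68 and 0 of the 47 passed, without syngeneic array 2 again 0, and without syngeneic array 1 only Hey2.

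Other arterial genes were described in the same way. Of 18 measured genes 0 passed between the groups in either fit (limma, with 2 at an unadjusted p below 0.05 in each), and the median log2 change was -0.17 without and 0.08 with the covariate. For this list and those that follow, the share of all genes at an unadjusted p below 0.05 was 13.2% without and 10.9% with the covariate. Depp1 (-0.76 ± 0.30) and Sema3g (-0.78 ± 0.32), which are known from arterial endothelium, had the smallest p-values (SE, limma adjusted p = 0.304 and 0.333). The slope on the mean of Pecam1 and Cdh5 passed in 9 of the 18, beside 2.25% of all genes. Among them were Epas1 (0.81 ± 0.08), the hypoxia-inducible factor HIF-2 alpha of endothelium, and Nrp1 (0.82 ± 0.12), a coreceptor of VEGF (SE, limma adjusted p = 0.000921 and 0.00782). Without syngeneic array 4 the slope passed in 0 of the 18, and without syngeneic array 2 in 2. In 12 venous and lymphatic genes the median log2 change was -0.22 without and -0.05 with the covariate and the slope passed in 4, with Selp, the leukocyte adhesion molecule P-selectin of veins, at 1.23 ± 0.23 (SE, limma adjusted p = 0.0224). The slope passed in 0 of these 12 without syngeneic array 4 or 2, and in 1 without syngeneic array 1. All 23 measured genes of the pan-endothelial list had a slope past the threshold, 2 of which are Pecam1 and Cdh5 themselves. There were 2 without syngeneic array 4 and 15 without syngeneic array 2. These counts include any call on Pecam1 and Cdh5, whose slopes on their own mean are circular. Between the groups the median log2 change of the 23 genes was -0.65 without and -0.06 with the covariate, and 0 of 23 passed (limma, with 6 at an unadjusted p below 0.05 in each fit). Of the 17 epithelial genes 15 had a positive log2 change without the covariate, with a median of 0.17, and 0 passed (limma, with 4 at an unadjusted p below 0.05).

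**Figure D5:**
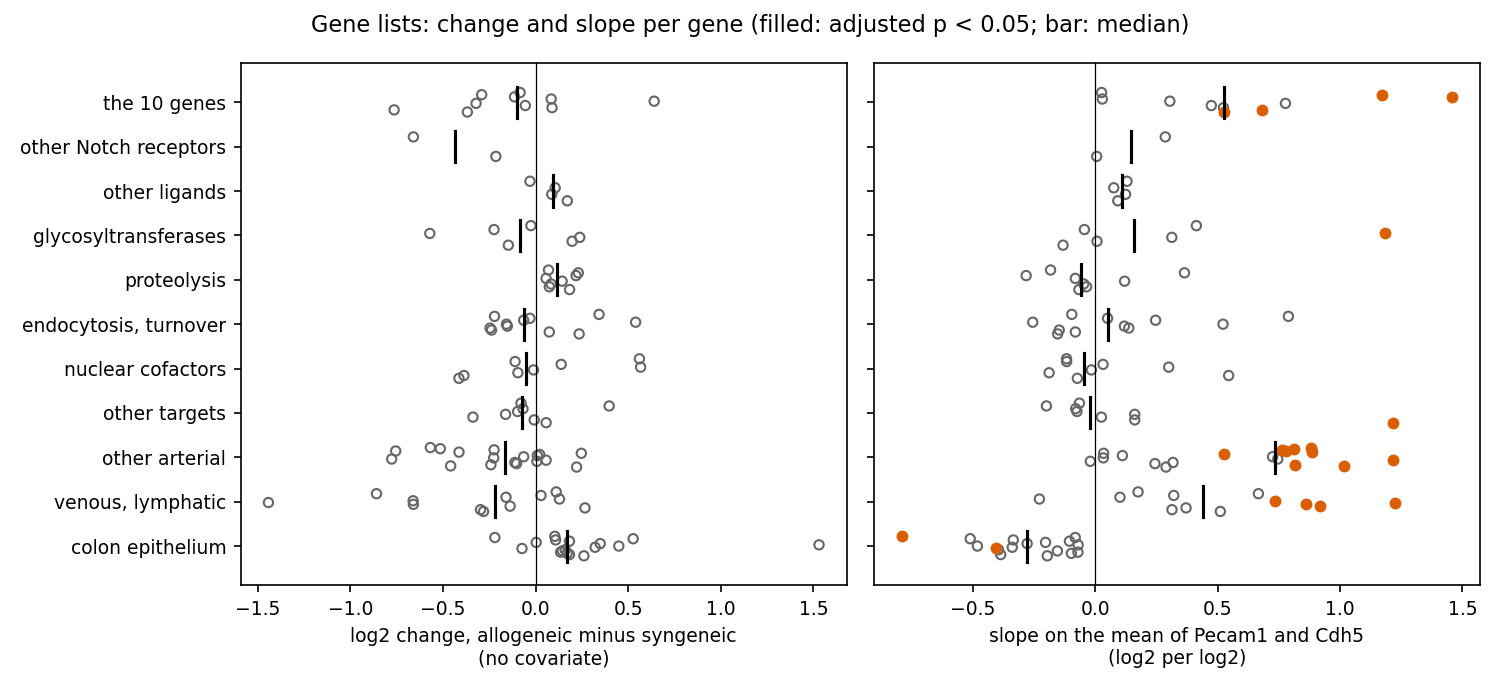
Each point is 1 gene of the 10 or of a named list (rows). The left panel plots its log2 change, allogeneic minus syngeneic with no covariate, and the right panel its slope on the mean of Pecam1 and Cdh5. Filled points have a limma adjusted p below 0.05 and bars are medians. No gene is filled on the left, and on the right filled points lie among the 10 genes, glycosyltransferases, other targets, arterial, venous and lymphatic genes, and on the negative side among epithelial genes.

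Genes that epithelial Notch signalling is known to control were examined because Hes1, Jag1 and Notch1 are also active in gut epithelium. Atoh1, the secretory fate factor that Hes1 represses in the gut, had 10.71, 10.65, 10.07 and 10.27 on allogeneic arrays 1 to 4 and 10.10, 10.18, 10.15 and 8.54 on syngeneic arrays 1 to 4. Syngeneic array 4 was far below the rest and the groups overlapped. The log2 change was 0.68 ± 0.33 without and 0.23 ± 0.21 with the covariate (SE, limma adjusted p = 0.417 and 0.779), and its slope on Pecam1 and Cdh5 was -0.79 ± 0.17 (SE, limma adjusted p = 0.0418). For Atoh1 this slope was -0.31 without syngeneic array 4 (limma adjusted p = 0.607), and of the arrays left out singly only syngeneic array 3 left it past the threshold. Spdef, which drives goblet cell maturation, had a log2 change of 0.48 ± 0.16 and Olfm4, a Notch-dependent stem cell gene, one of -0.44 ± 0.29 (SE, limma adjusted p = 0.215 and 0.555). With the covariate Spdef had 0.30 ± 0.12 and Olfm4 -0.83 ± 0.19 (SE, limma adjusted p = 0.393 and 0.121). The mean of Olfm4 over all arrays was 3.87, below that of the median gene (5.33). Without a detection call its changes cannot be told apart from those of a gene that is not detected. Of the 5 genes of this list 0 passed between the groups in either fit (limma). At an unadjusted p below 0.05 there was 1 without and 2 with the covariate, beside 13.2% and 10.9% of all genes.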

How the data were processed

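RNA of sorted colon endothelial cells from 4 allogeneic and 4 syngeneic recipients was hybridized to Affymetrix Mouse Gene 2.0 arrays, starting with 700 pg of total RNA per the labels' protocols. The deposited values are log2 signals, 1 for each probe set, for which the submitters' processing notes name RMA and Expression Console 1.4.1. RMA corrects background, normalizes quantiles and summarizes probes, and the build behind the probe sets is not given in the sources used here. Of 41345 probe sets 23521 had exactly 1 gene symbol in the platform annotation, 1814 had several and 16010 none. For each of the 22180 genes the set with the highest mean was used, and further sets that name Dll4 or Gja5 together with another gene were not. With limma 3.58.1 in R 4.3.3 (lmFit, eBayes with an intensity trend, no filter) allogeneic minus syngeneic changes were fitted without and with the array mean of Pecam1 and Cdh5, with Benjamini-Hochberg adjustment over all genes (threshold 0.05). Simulated data of 22180 genes had 200 changed in each of 5 sets. There 15.2% of 1.5-fold changes were called without and 3.28% with the covariate. The shares were 58.8% and 38.5% for 2-fold and 86.7% and 79.7% for 3-fold changes. They are averages over the changed genes and not the chance for a widely spread gene such as Hey1 or Gja4. The genes and lists were chosen with earlier results of these data known. Genes named beyond the 10 are, per list, the 3 with the smallest p and the 2 with the highest mean, and the 3 nearest to each of the 10, leaving out predicted and Y-linked genes and olfactory or vomeronasal receptors. Settings tried were no trend, a filter at the median gene, centring, array weights, a replicate block, other covariates and arrays left out. The second Rbpj set and the neighbours of probe sets were examined after the values were seen. P-values measure the spread between these arrays. No batch is given in the sources used here.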

Additional observations from a re-analysis of the deposited data

Results flagged for a closer look

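In 26 sets of 4 arrays (the 10 genes, Pecam1, Cdh5 and their mean, in each group) 2 held an array far from the other 3 by Dixon's test, which chance does in about 1 of 20. Jag2 was 7.73 on syngeneic array 4, against 6.08 to 6.28 on the other syngeneic arrays. The probe set used for Rbpj was 5.99 on allogeneic array 3, against 5.67 to 5.71 on the other allogeneic arrays.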

How the results depend on the processing

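The call on each of the 10 genes between the groups held in every setting run, except that Rbpj passed (1 gene) in the adjusted fit with array weights and with centred arrays, and Gja5 has no value where genes under the median gene were left out. Direction was less stable. Without the covariate it turned for Jag1 with centred arrays (0.0087), for Jag1 and Hey1 with array weights (0.037 and 0.20), and without both syngeneic arrays 3 and 4 for Notch1 (0.0077), Jag1 (0.26), Jag2 (0.13), Hey1 (0.88) and Gja4 (0.53). Leaving out each array in turn gave -0.52 to 0.42 for Hey1, -0.67 to 0.23 for Gja4, -0.48 to 0.069 for Jag2, -0.17 to 0.13 for Jag1, -0.086 to 0.25 for Dll4 and -0.044 to 0.20 for Hes1. With the covariate Gja5 turned with centred arrays (0.00095) and with Pecam1 and Cdh5 subtracted (0.48), as did Notch1 when subtracted (0.19). Leaving out each array then gave -0.13 to 0.041 for Gja5, -0.062 to 0.21 for Hes1 and -0.013 to 0.29 for Jag2, and slopes of -0.019 to 0.11 for Gja5 and -0.033 to 0.30 for Hes1. The second probe set of Rbpj gave changes of -0.017 without and -0.061 with the covariate and a slope of -0.080. Without the covariate 79 genes were higher and 25 lower in allogeneic arrays, against 138 and 55 among genes above the median gene, 143 higher with centred arrays, 39 lower with array weights, and 26 and 12 without both syngeneic arrays 3 and 4. Leaving out each array gave 4 to 145 higher and 4 to 35 lower. With the covariate 51 were higher and 19 lower, against 19 and 9 without an intensity trend, 122 and 49 above the median gene, 137 higher with centred arrays, 111 and 53 with array weights, 9 and 7 without both syngeneic arrays, 25 higher with the pan-endothelial mean, 6 and 5 with the epithelial mean, 2 lower when subtracted, and 2 to 68 higher and 0 to 26 lower with each array left out. Slopes on Pecam1 and Cdh5 passed in 2 to 677 genes, 0 to 5 of the 10, 0 to 8 of 18 arterial, 0 to 3 of 47 other Notch pathway, 0 to 5 of 12 venous and lymphatic and 2 to 23 of 23 pan-endothelial genes, and slopes on the epithelial mean in 0 to 615 genes and 0 to 4 of the 10, with each array left out. Without both syngeneic arrays 3 and 4 each of these counts was 0. Same-numbered arrays of the groups were not paired, as their deviations correlated at -0.10 to 0.10, and the replicate block gave 40 higher genes without the covariate, 14 higher and 5 lower with it, and -0.18 for Hes1. The causes were not tested. The number of arrays limits the precision.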

Other observations

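Marker lists of cells other than endothelium overlapped between the groups. The 5 fibroblast genes were all positive, with a median log2 change of 0.51 and list means of 7.47 to 8.56 in allogeneic and 6.85 to 7.77 in syngeneic arrays. Dcn, a matrix proteoglycan, had 0.51 ± 0.23 and Lum, another, 0.83 ± 0.30 (SE, limma adjusted p = 0.377 and 0.268). Of the 5 genes 0 passed (limma, with 3 at an unadjusted p below 0.05, beside 13.2% of all genes). Of 10 genes of smooth muscle and pericytes, the cells in which Notch3 is best known, 9 were negative, with a median of -0.28 and list means of 7.49 to 8.22 in allogeneic and 7.64 to 8.50 in syngeneic arrays. Pdgfrb, the pericyte receptor for PDGF, had -0.53 ± 0.23 (SE, limma adjusted p = 0.365). Of 10 leukocyte genes 1 passed, S100a8, a neutrophil protein, at -1.94 ± 0.18 (SE, limma adjusted p = 0.00424), and the list means ran from 4.86 to 5.56 in allogeneic and from 5.19 to 5.64 in syngeneic arrays. The 4 measured genes of enteric neurons and glia had a median change of 0.03. The part of these cells in the values of the 10 genes was not tested.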
